A study of Homo sapiens with 22 samples.

Results

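H1299, an established line from a human lung carcinoma, was compared with and without BRCA2 while GSK3 was inhibited in both. The 6 RNA-seq libraries were chosen by their sample titles from 22 in the series, and all genes were taken. The study measured the response to GSK3 inhibition and to loss of β-catenin in these cells, and its methods also list BRCA2 depletion without the inhibitor. The present comparison asks what BRCA2 depletion changes once the inhibitor is present. The BRCA2-deficient group (3 libraries) was given doxycycline (DOX) at 2 µg/mL for 3 days, which switches on a short hairpin RNA against BRCA2. The BRCA2-proficient group (3 libraries) carried the same inducible hairpin and had no DOX. Both groups were transfected with a control siRNA (AllStars) and received 250 nM LY2090314, an inhibitor of GSK3 (GSK3i), for 24 h. The hairpin stands for BRCA2 loss in a line and leaves residual transcript. DOX was given only together with it, so an effect of DOX and an effect of BRCA2 depletion cannot be told apart. The series held no control hairpin with DOX, so effects of the hairpin on other transcripts cannot be told apart either.

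BRCA2 acts in homologous recombination, the repair of DNA breaks from an intact copy, and shields stalled replication forks from nucleases. GSK3 is a kinase that phosphorylates β-catenin, the transcriptional effector of WNT signalling, and so targets it for destruction, and β-catenin builds up when GSK3 is blocked. Cells without BRCA2 carry unrepaired breaks and stressed forks, and checkpoint signalling, cell cycle genes and DNA-sensing pathways are the transcript programmes most often examined in them.

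The 6 libraries held between 21.9 and 27.1 M counts, and all libraries of the series between 18.9 and 29.3 M. BRCA2-deficient replicate 1 stood apart from the other libraries of its group. The chi-square per gene between it and replicates 2 and 3 was 44.4 and 57.6, against 12.7 to 28.2 for the other pairs of one group. The first principal component, with 42.2% of the variance, placed it at 40.1 and the other 5 libraries between -28.1 and 6.81. KRT8, KRT18 and VIM, which mark a carcinoma line of this kind, were present in every library, with VIM between 19886 and 29034 normalised counts. The 11 markers of immune, endothelial, fibroblast and alveolar cells that the table held summed to between 50.7 and 57.1 normalised counts in the proficient and between 69.7 and 78.7 in the deficient libraries, with CDH5 at 0 throughout. Normalised counts are read counts divided by DESeq2 size factors. They are compared here between libraries and not between genes, since they are not corrected for transcript length.

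BRCA2 (chr13:32889223-32974405, GRCh37, protein-coding) was checked before any other gene. It had 514, 812 and 992 normalised counts in proficient replicates 1 to 3 and 84.8, 212 and 225 in the deficient replicates. Every deficient library was below every proficient one. The log2 fold change was -2.14 ± 0.35 (SE; adjusted p = 1.9e-07, DESeq2's Wald test with Benjamini-Hochberg adjustment over all genes tested, n = 3 against 3). CTNNB1, which encodes β-catenin, did not pass the test, with a log2 fold change of -0.13 ± 0.13 (adjusted p = 0.65). AXIN2, a WNT target often read as a gauge of β-catenin activity, had 1153, 1145 and 1027 normalised counts in proficient cells and 1231, 1747 and 1593 in deficient cells. The log2 fold change of AXIN2, 0.46 ± 0.18, missed the threshold of 0.05 (adjusted p = 0.087), and it passed without BRCA2-deficient replicate 1 (0.61).

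Calling a gene required an adjusted p below 0.05 together with a log2 fold change beyond 0.5 in size. Of 16336 genes tested, 1112 were called (6.81%), 614 higher (3.76%) and 498 lower (3.05%) in BRCA2-deficient cells. The median log2 fold change was 0.85 among the genes called higher and -0.72 among those called lower, and 339 of the 1112 lay beyond 1 in size. The called genes were mostly protein-coding, 562 of the higher and 466 of the lower. The groups did not overlap for 1104 of the called genes, while 27.4% of all genes tested had groups that did not overlap. The count rested on the replicates: it was 608 without proficient replicate 2, 611 without proficient replicate 3 and 1302 without deficient replicate 1. edgeR's quasi-likelihood test called 643 genes, 610 of them among the 1112.

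The largest increases among called genes with a mean of at least 100 normalised counts and no overlap between the groups were in GPNMB, PPL, SPOCD1, CPA4, COL14A1, GPER1, IL32, GBP2, APOE, FBXO32, HES4 and IDUA, by between 3.08-fold (IDUA) and 7.3-fold (GPNMB). GPNMB (chr7:23275586-23314727), a transmembrane glycoprotein of lysosomes and melanosomes, had 37.3, 38.7 and 25.9 normalised counts in proficient and 204, 293 and 247 in deficient cells. The lowest deficient library was far above the highest proficient one, and the log2 fold change was 2.87 ± 0.28 (adjusted p = 1.8e-21). PPL (chr16:4932508-5010742), which encodes the desmosomal linker periplakin, had 72.2, 71.7 and 65.4 against 322, 419 and 457, a log2 fold change of 2.52 ± 0.23 (adjusted p = 1.6e-24). CPA4, a secreted carboxypeptidase, had 918, 523 and 630.3 against 2666, 2364 and 2364, a log2 fold change of 1.83 ± 0.21 (adjusted p = 9.5e-16). IL32, a pro-inflammatory cytokine, had 669.7, 592 and 392 against 2401, 1447 and 1621, with deficient replicate 1 well above the other deficient libraries and a log2 fold change of 1.72 ± 0.24 (adjusted p = 5.1e-10). APOE, the lipid carrier, was narrow in the deficient group (598, 629.6 and 625) and ran from 135 to 277 in the proficient group, a log2 fold change of 1.64 ± 0.25 (adjusted p = 5.4e-09). The set also held GBP2, an interferon-inducible GTPase (log2 fold change 1.64 ± 0.30), FBXO32, a muscle-atrophy ubiquitin ligase subunit (1.64 ± 0.32), and IDUA, a lysosomal hydrolase (1.62 ± 0.23). All 12 kept their call with any 1 library left out, and 11 of them had an edgeR adjusted p below 0.05, HES4 being the exception (0.065).

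By the same choice, the largest decreases were in DDIT4, CHAC1, SESN2, BRCA2, CARNMT1, TMEM156, TMEM158, RAB39B, CTH, MAP3K4-AS1, YAP1 and TRIB3. CARNMT1 (chr9:77595706-77643339), a carnosine methyltransferase, had 1948, 1915 and 2318 normalised counts in proficient and 410.1, 450.1 and 541 in deficient cells, a log2 fold change of -2.14 ± 0.17 (adjusted p = 2.4e-31). TMEM156, a membrane protein, had 695, 754 and 852 against 203, 149 and 176 (-2.13 ± 0.18, adjusted p = 6.0e-29). YAP1 (chr11:101981178-102104155), the co-activator at the end of the Hippo pathway, had 4081, 4575 and 5035 against 1171, 1607 and 1379, a log2 fold change of -1.72 ± 0.17 (adjusted p = 7.9e-20). TMEM158, a RAS-induced membrane protein, had 4454, 4963 and 2414 against 1269, 970.0 and 632 (-2.05 ± 0.29, adjusted p = 6.2e-10). MAP3K4-AS1 is an antisense lncRNA, and since the strand setting of the counting is not stated its reads cannot be told apart from those of its partner gene. All 12 kept their call with any 1 library left out and under edgeR.

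**Figure D1:**
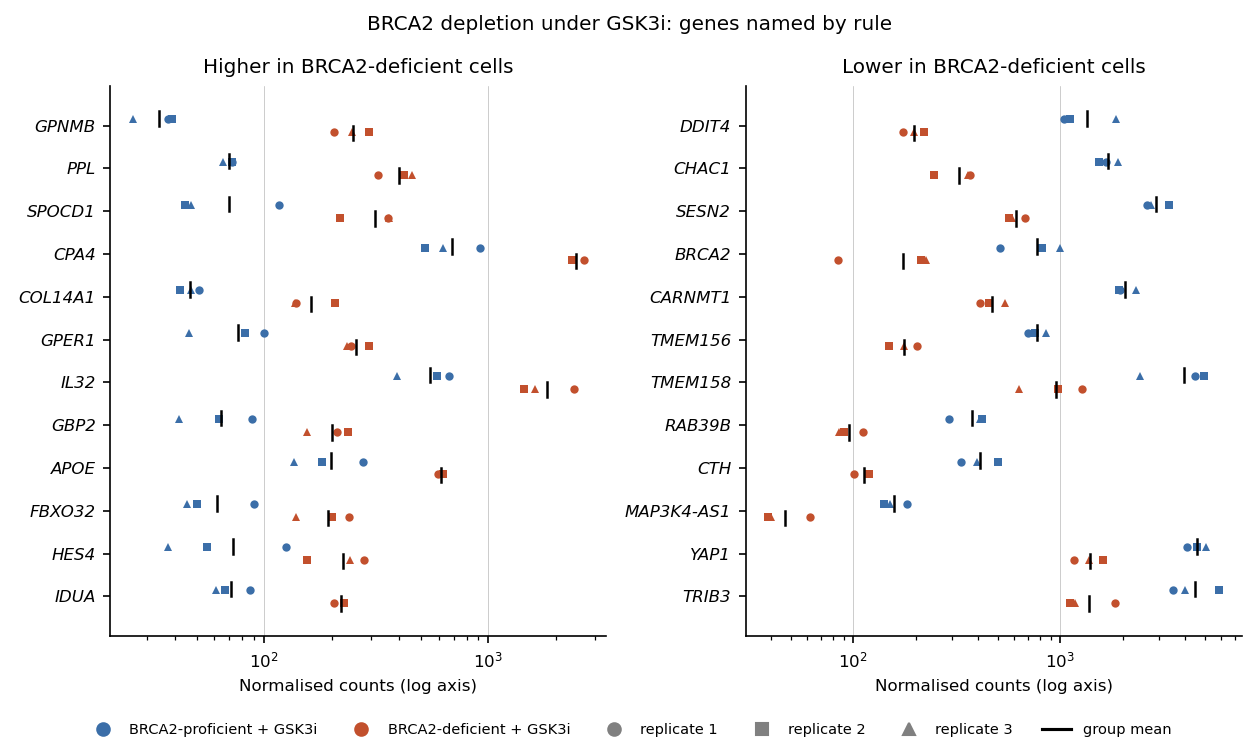
Normalised counts (log axis) of the 12 genes with the largest called increase and the 12 with the largest called decrease, in 3 BRCA2-proficient (blue) and 3 BRCA2-deficient (red) libraries with GSK3i; marker shape gives the replicate and black ticks the group means. The genes were chosen to have no overlap between groups; GPNMB, at the top, had 25.9 to 38.7 against 204 to 293.

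DDIT4, CHAC1, SESN2, CTH and TRIB3 belong to the integrated stress response. In that programme, kinases that sense amino acid shortage, unfolded proteins or other stress phosphorylate eIF2α, which favours translation of the transcription factor ATF4, and ATF4 then drives genes for amino acid uptake and synthesis. ATF4 binds composite elements that join parts of a C/EBP site and a CRE site. The RefSeq promoter windows (GRCh38.p14, 250 bases before to 50 after the start site) were searched for the element TGATGNAA on both strands. It was present in 5 of 31 windows of the listed genes (16.1%) and in 3.62% of all 35116 windows, and 22 of the 28 genes had a window. Of 17 genes called lower with a window, 3 held a match, ASNS, ATF3 and CHAC1, and the other matches were in SLC3A2 and SLC7A1, which were not called. The 250 bases before their start sites are shown because these genes fell together, with the match in capitals, beginning at -68, -191 and -209 from the start site. A match is a run of letters and not a mapped binding site. In CHAC1 the match is on the opposite strand.
ASNS (chr7:97872409-97872658, minus strand): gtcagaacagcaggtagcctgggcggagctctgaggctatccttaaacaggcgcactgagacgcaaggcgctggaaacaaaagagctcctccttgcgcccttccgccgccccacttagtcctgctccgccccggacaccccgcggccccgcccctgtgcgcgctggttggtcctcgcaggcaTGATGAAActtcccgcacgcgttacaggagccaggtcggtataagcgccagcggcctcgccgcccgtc
ATF3 (chr1:212565157-212565406, plus strand): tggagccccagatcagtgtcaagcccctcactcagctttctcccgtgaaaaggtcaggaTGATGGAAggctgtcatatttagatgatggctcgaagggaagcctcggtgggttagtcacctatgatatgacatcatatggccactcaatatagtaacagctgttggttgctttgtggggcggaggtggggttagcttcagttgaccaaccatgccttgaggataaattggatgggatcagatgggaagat
CHAC1 (chr15:40953221-40953470, plus strand): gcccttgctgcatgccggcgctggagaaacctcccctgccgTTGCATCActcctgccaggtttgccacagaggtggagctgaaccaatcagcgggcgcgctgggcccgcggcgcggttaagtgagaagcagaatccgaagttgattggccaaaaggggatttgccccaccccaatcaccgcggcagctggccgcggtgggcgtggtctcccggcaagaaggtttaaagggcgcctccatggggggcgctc

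Of the 28 genes in the list of the ATF4 stress response and amino acid supply, 20 were called lower and 0 higher in BRCA2-deficient cells, with a median log2 fold change of -0.99, against 3.05% of all genes called lower and a median of -0.00 over all genes. DDIT4 (chr10:74033678-74035794), an inhibitor of mTORC1, had 1038, 1116 and 1863 normalised counts in proficient and 174, 220.2 and 196 in deficient cells, a log2 fold change of -2.77 ± 0.25 (adjusted p = 5.2e-25). SESN2 (chr1:28586029-28609002), a leucine sensor that also restrains mTORC1, had 2611, 3355 and 2738 against 676, 565 and 582 (-2.26 ± 0.16, adjusted p = 3.3e-42). CHAC1, which degrades glutathione, had 1658, 1541 and 1899 against 367, 246 and 359 (-2.40 ± 0.19, adjusted p = 3.1e-32). In these 3 genes the lowest proficient library lay far above the highest deficient one. TRIB3, a pseudokinase that restrains ATF4 signalling, had 3519.6, 5869.9 and 3981 against 1842, 1118 and 1173 (-1.71 ± 0.25, adjusted p = 1.0e-09).

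ASNS, asparagine synthetase, had 10780.2, 15298 and 13006 normalised counts in proficient and 5914, 3999 and 4448 in deficient cells, a log2 fold change of -1.45 ± 0.19 (adjusted p = 2.5e-11). The serine pathway enzymes PHGDH (-0.99 ± 0.17) and PSAT1 (-1.29 ± 0.18) fell, as did CTH, which makes cysteine (-1.87 ± 0.22), and the one-carbon enzyme MTHFD2 (-0.72 ± 0.13). Of the transporters, the cystine carrier SLC7A11 had 802, 1409 and 1310.2 against 293, 348 and 442 (-1.70 ± 0.25, adjusted p = 4.5e-09), and the leucine carrier SLC7A5 fell by 1.22 ± 0.18 on the log2 scale. Their partner subunit SLC3A2 did not pass the test (0.06). ATF4 itself (chr22:39915700-39918688) had 12468, 12579.5 and 10510.2 against 9924, 7164 and 6581, a log2 fold change of -0.60 ± 0.18 (adjusted p = 0.013). ATF3, another factor of the programme, had a log2 fold change of -0.99 ± 0.24 (adjusted p = 0.0011). DDIT3, the pro-apoptotic factor CHOP, had 1092, 702 and 1020.5 against 834, 559.7 and 570.4 and did not pass the test (-0.53 ± 0.22, adjusted p = 0.13). In the list of the unfolded protein response, which runs beside this programme, 0 of 12 genes were called by DESeq2 or edgeR, with 2 at an unadjusted p below 0.05.

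With any 1 library left out, 15 of the 20 kept their call in every fit, and the number called ran from 15 to 21. ATF4 lost its call without deficient replicate 2 (adjusted p = 0.13), deficient replicate 3 (0.11), proficient replicate 1 (0.087) or proficient replicate 2 (0.17), and ALDH1L2, GDF15, SHMT2 and VLDLR were each lost in 2 or more fits. GDF15 was also lost with the replicate number as a block (adjusted p = 0.0501). edgeR called 15 of the 20.

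**Figure D2:**
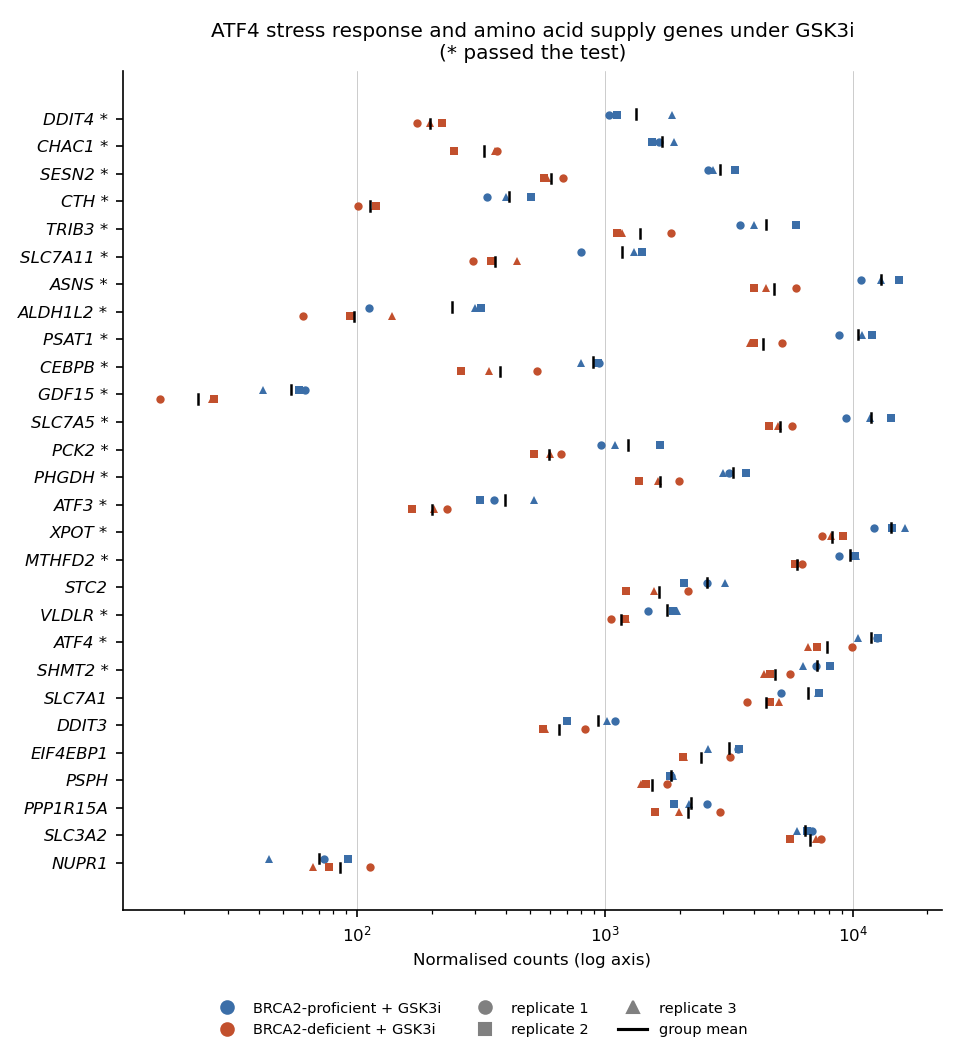
Normalised counts (log axis) of the 28 genes in the list of the ATF4 stress response and amino acid supply, ordered by log2 fold change, in 3 BRCA2-proficient (blue) and 3 BRCA2-deficient (red) libraries with GSK3i; black ticks are group means and asterisks mark the 20 genes called lower. The red points lie to the left of the blue for 21 of the 28 genes without overlap (27.4% of all genes tested), most widely for DDIT4, and the groups overlap for SLC3A2 and NUPR1 at the bottom.

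Mitosis genes were called lower in part, by smaller amounts. Of 35 mitosis genes, 34 had a log2 fold change below 0, 10 were called lower (28.6%, against 3.05% of all genes) and 0 higher, and the median was -0.43. NUF2 and NDC80, subunits of the kinetochore complex that holds microtubules, had log2 fold changes of -0.75 ± 0.14 (adjusted p = 7.6e-06) and -0.64 ± 0.14 (adjusted p = 2.4e-04). NUF2 had 1235, 1161 and 1325 normalised counts in proficient and 701, 798 and 709.9 in deficient cells. PLK1, the mitotic kinase, had 3453, 3879.9 and 3561 against 2446, 2574 and 2408 (-0.56 ± 0.12, adjusted p = 2.4e-04), so that its groups were separate although the change was close to the threshold of size. AURKA, the spindle pole kinase, fell by 0.51 ± 0.12 on the log2 scale. CDK1, the kinase that starts mitosis, had an adjusted p of 0.0046 and a log2 fold change of -0.46 ± 0.12, inside the threshold of size, and FOXM1, the factor that drives these genes, one of -0.30 ± 0.10 (adjusted p = 0.046). NUF2, NDC80 and PLK1 kept their call with any 1 library left out. The list's count was 6 without proficient replicate 2 and 4 without proficient replicate 3, and edgeR called 4.

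Many mitotic promoters carry a CHR element, read by complexes that hold the MuvB core, among them the repressor DREAM. The letters TTTGAA, searched on both strands, were present in 23 of 39 promoter windows of the listed mitosis genes (59.0%) and in 15.16% of all windows of the same length; 29 of the 35 genes had a window. Of 9 called genes with a window, 7 held a match, as did 20 of all 29 listed genes with a window (69.0%). In NUF2 it begins at 16 after the start site. HMMR, a spindle-binding hyaluronan receptor, is shown because its window holds 2 adjacent matches, at -28 and -22, in capitals in the 250 bases before its start site. HMMR fell by 0.61 ± 0.19 on the log2 scale (adjusted p = 0.021) and lost its call without deficient replicate 2 (0.08) or proficient replicates 2 (0.068) or 3 (0.17).
HMMR (chr5:163460382-163460631, plus strand): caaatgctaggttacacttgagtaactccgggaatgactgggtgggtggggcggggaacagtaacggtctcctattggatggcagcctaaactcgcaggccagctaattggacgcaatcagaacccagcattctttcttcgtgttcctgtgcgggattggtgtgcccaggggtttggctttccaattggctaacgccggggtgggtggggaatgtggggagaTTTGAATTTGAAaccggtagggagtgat

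Of 41 genes for replication licensing and forks, 36 had a log2 fold change below 0, while 49.6% of all genes tested were above 0. Calls numbered 3, all lower (7.32%, against 6.81% of all genes in either direction and 3.05% lower). They were MCM6, a subunit of the replicative helicase (-0.61 ± 0.13, adjusted p = 1.6e-04), RFC1, the large subunit of the clamp loader (-0.62 ± 0.17, adjusted p = 0.005), and CDC7, a kinase that fires origins (-0.53 ± 0.15, adjusted p = 0.0084). MCM6 had 3375, 3787 and 3749 normalised counts in proficient and 2626, 2392 and 2165 in deficient cells. The list's median was -0.25, and MCM6 alone of the 3 kept its call with any 1 library left out; the count was 1 without proficient replicate 2 or 3. The licensing factors CDC6 (-0.29 ± 0.12), ORC1 (-0.32 ± 0.15) and MCM4 (-0.12 ± 0.11) did not pass the test (adjusted p = 0.12, 0.17 and 0.63).

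Among 35 genes of homologous recombination and Fanconi anaemia repair, BRCA2, the target of the hairpin, and BARD1 were called and 33 were not, a share of 5.71% against 6.81% of all genes. BARD1 (chr2:215590370-215674407), the ring-domain partner of BRCA1, had 462, 517 and 618 normalised counts in proficient and 197, 276 and 237 in deficient cells, a log2 fold change of -1.17 ± 0.21 (adjusted p = 1.4e-06), with no overlap. BRCA1 (-0.18 ± 0.22) and PALB2, which bridges BRCA1 and BRCA2 (-0.11 ± 0.13), did not pass the test. The median of the list was -0.17.

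Of 29 regulators of the G1/S step, 2 were called higher and 6 lower (27.6% in all, against 6.81% of all genes). CDK6, a G1 kinase, had 6876, 8028 and 9913 normalised counts in proficient and 2274, 3049 and 4307 in deficient cells, a log2 fold change of -1.37 ± 0.25 (adjusted p = 4.6e-06). SKP2, the ubiquitin ligase subunit that removes p27, had 1106, 1203 and 1379 against 412, 550.0 and 559.7 (-1.28 ± 0.19, adjusted p = 2.0e-09). CDK6 and SKP2 kept their call with any 1 library left out, and the other 6 did not, among them E2F8, a late repressor of E2F genes (-0.94 ± 0.24). CCNE1, which encodes cyclin E1, rose, from 433, 423 and 458 to 806, 534 and 758 (0.67 ± 0.19, adjusted p = 0.009), and CDKN2B, the CDK4 and CDK6 inhibitor p15, rose by 0.63 ± 0.17 (adjusted p = 0.0049). CCNE1 lost its call without deficient replicate 3 (adjusted p = 0.11) or any 1 of the proficient replicates (0.067, 0.12 and 0.051), and CDKN2B without deficient replicate 2 (0.087) or proficient replicates 2 (0.089) or 3 (0.075). CDKN1A, the inhibitor p21, had 678, 655 and 609 against 981, 606 and 734, with overlapping groups and no call (0.25 ± 0.19, adjusted p = 0.54). Of 23 targets of the DNA damage response tested, 1 was called higher and SESN2 lower (8.7% in all, against 6.81% of all genes). The study states that p53 function is abrogated in H1299, and its part in this count was not tested.

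Of 37 genes for extracellular matrix and its remodelling that could be tested (50 were listed), 11 were called higher (3.76% over all genes) and 3 lower, with a median of 0.19. COL6A1 (chr21:47401684-47424964), a collagen VI chain, had 3159.8, 2535 and 2307 normalised counts in proficient and 5478, 5069 and 5991 in deficient cells, a log2 fold change of 1.04 ± 0.16 (adjusted p = 1.8e-08). COL6A2, a neighbouring gene for another chain of the same collagen, had 4597, 3577 and 2686 against 8488, 6203 and 7192 (1.01 ± 0.21, adjusted p = 9.2e-05). Both genes were separate between the groups. LAMA5, a laminin chain of basement membranes, had 834, 721 and 739 against 1429.6, 1688 and 2235 (1.22 ± 0.20, adjusted p = 1.5e-07), and SPARC, which binds collagen, rose by 1.25 ± 0.28. VCAN, the proteoglycan versican, fell, with 472, 602 and 617 against 174, 220.2 and 299.5 (-1.28 ± 0.24, adjusted p = 7.3e-06), as did MMP14, a membrane-bound matrix protease. COL6A1, COL6A2, LAMA3, LAMA5, SPARC and VCAN kept their call with any 1 library left out; the list's count was 7 without deficient replicate 3, 8 without proficient replicate 2, 9 without proficient replicate 3 and 8 by edgeR. The summed fibroblast and other markers given above were higher in the deficient libraries as well; of the 3 fibroblast markers, PDGFRA had 6.77 to 10.5 normalised counts in proficient and 16.1 to 21.8 in deficient cells, while DCN (21.6 to 28.2 against 22.9 to 32.7) and PDGFRB (3.49 to 6.83 against 2.68 to 8.02) overlapped. Their part in the result was not tested, and in bulk RNA of a line more cells with a transcript and more of it per cell cannot be told apart.

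Interferon-stimulated and DNA-sensing genes, which respond to cytosolic DNA and type I interferon, were called higher in part. Of 31 tested (39 were listed, and CMPK2 was not found and MX1, MX2, OAS1, OAS2, RSAD2, BST2 and XAF1 were too low to test), 9 were called higher and 0 lower, with a median of 0.40. The share called was 29%, against 3.76% of all genes called higher. The called genes ran from IFI44 (0.60 ± 0.20) to OASL, which had 23.3, 13.7 and 28.2 normalised counts in proficient and 40.1, 43.3 and 77.8 in deficient cells (1.31 ± 0.45, adjusted p = 0.039). IFIT3 had 257, 238 and 228 normalised counts in proficient and 370.0, 467 and 342 in deficient cells, a log2 fold change of 0.70 ± 0.19 (adjusted p = 0.005). STING1, the adaptor for cytosolic DNA, had 518, 476 and 422 against 836, 717 and 653 (0.63 ± 0.16, adjusted p = 0.0023), while the sensor CGAS did not pass the test (-0.28 ± 0.18, adjusted p = 0.4). None of the 9 calls held in every fit with 1 library left out: the count was 4, 0 and 1 without proficient replicates 1, 2 and 3, and 2 without deficient replicate 2 or 3. edgeR called 2, and with the replicate number as a block 7 were called higher and 1 lower, with ISG20 and IFI44L losing their call (adjusted p = 0.07 and 0.067).

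Of 22 lysosome and autophagy genes, 20 had a log2 fold change above 0, with a median of 0.33 over the list. Calls numbered 5, all higher (22.7%, against 3.76% of all genes), HEXA, CTSA, TFEB and WIPI1 among them. TFEB, the master regulator of lysosome genes, had 127, 109 and 123 normalised counts in proficient and 191, 173 and 205 in deficient cells, with no overlap (log2 fold change 0.66 ± 0.20, adjusted p = 0.018). CTSA, a lysosomal carboxypeptidase, had 9063, 8133 and 6726 against 14081, 10703 and 10688 (0.56 ± 0.17, adjusted p = 0.015), again with no overlap. With 1 library left out, WIPI1 lost its call in all 6 fits, TFEB and HEXA in 5 and CTSA in 3. The list's count was 1 without proficient replicate 2 or 3, and 2 without proficient replicate 1 or deficient replicates 1 or 2. By edgeR it was 1.

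Of 13 NOTCH pathway genes tested, 4 were called higher and 2 lower (46.2% in all, against 6.81% of all genes). The ligand gene JAG2 had 709, 463 and 509.7 normalised counts in proficient and 1331, 1035 and 1275 in deficient cells (1.11 ± 0.20, adjusted p = 2.2e-06), the receptor NOTCH3 rose by 0.98 ± 0.23, and the target genes divided, with HES4 (1.63 ± 0.40) and HEYL (1.26 ± 0.38) higher and HEY1 (-1.03 ± 0.16, adjusted p = 2.8e-08) and NRARP (-0.96 ± 0.30) lower. HEYL lost its call with the replicate number as a block (adjusted p = 0.051). HES4, HEY1, JAG2 and NOTCH3 kept their call with any 1 library left out. Among 28 NRF2 targets, 4 rose, ABCC3, HMOX1, FTH1 and EPHX1, and SLC7A11, which is also driven by ATF4, fell. Together 17.9% were called, against 6.81% of all genes. HMOX1, which degrades haem, had 1063, 1000.1 and 606 against 1897, 1375 and 1758 (0.91 ± 0.23, adjusted p = 0.0022). FTH1, ferritin heavy chain, rose by 0.79 ± 0.18 (adjusted p = 5.2e-04), but its many processed copies make its count uncertain. EPHX1 (0.52 ± 0.17) lost its call in all 6 fits with 1 library left out.

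Signalling targets changed in smaller numbers. The shares called were 25% for MAPK feedback and ETS genes, 21.4% for YAP/TEAD genes and 23.5% for TGF-beta and BMP genes. They were 17.6% for NF-kappaB targets and cytokines and 20% for the BCL2 family, against 6.81% of all genes. Of 16 MAPK feedback and ETS genes, 4 were called lower and 0 higher: DUSP6 (-0.78 ± 0.22), ETV5 (-0.77 ± 0.15), ETV4 (-0.61 ± 0.17) and PHLDA1 (-0.60 ± 0.11). ETV5 had 4215, 5318 and 4730.2 normalised counts in proficient and 2640.5, 3038 and 2691 in deficient cells. DUSP6 lost its call in 2 and ETV4 in 5 of the 6 fits with 1 library left out. In the list of 14 YAP/TEAD genes YAP1 and NT5E (-0.64 ± 0.11) fell and ANKRD1, a YAP target, rose (1.58 ± 0.35, adjusted p = 3.1e-04). Of 17 TGF-beta and BMP genes, 3 were called higher, TGFBR2, ID2 and ID3, and 1 lower. ID2 lost its call in 5 of those 6 fits. TGFBR2, the type II receptor, had 2130.2, 2254 and 2121 against 3092, 3837 and 3868 (0.73 ± 0.15, adjusted p = 8.3e-05). Of 17 NF-kappaB targets and cytokines, CSF1 and TRAF1 rose and PTGS2 fell, with TRAF1 losing its call in 3 and PTGS2 in 1 of those fits. In the BCL2 family, the pro-apoptotic BIK and BCL2L11 rose and the protective BCL2L2 fell, all 3 losing the call in some fit with 1 library left out.

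Of 13 WNT targets tested, 3 were called higher (23.1%, against 3.76% of all genes) and 0 lower, with a median of 0.46. They were DKK1, a secreted WNT antagonist (1.03 ± 0.31, adjusted p = 0.014), BAMBI (0.98 ± 0.30, adjusted p = 0.019) and NKD2 (1.11 ± 0.39, adjusted p = 0.047). DKK1 had 353, 168 and 246 normalised counts in proficient and 722, 356 and 495 in deficient cells, so that the lowest deficient library barely cleared the highest proficient one. None of the 3 kept its call in every fit with 1 library left out, and NKD2 lost it with the replicate number as a block (adjusted p = 0.12). The β-catenin partners LEF1 (-0.19 ± 0.16) and TCF7 (-0.27 ± 0.15), the targets CCND1 (-0.24 ± 0.14) and SOX4 (-0.14 ± 0.18), and MYC (-0.23 ± 0.17) did not pass the test.

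The metabolic and housekeeping lists are read against 6.81% of all genes called. The share was 6.67% for cholesterol and fatty acid synthesis and for glycolysis and hypoxia, and 4.17% for ribosome biogenesis. It was 11.8% for immediate-early genes and 12.5% for epithelial and mesenchymal genes. By DESeq2 and by edgeR, 0 genes were called among 13 mtDNA-encoded genes, 75 mitochondrial ribosomal proteins, 75 nuclear subunits of oxidative phosphorylation or 8 heat shock genes, with medians of 0.15, -0.03, 0.08 and 0.01 and with 1, 2, 1 and 1 genes at an unadjusted p below 0.05. Among 30 genes of cholesterol and fatty acid synthesis, TM7SF2, a sterol reductase, rose (0.85 ± 0.20) and IDI1, an isoprenoid enzyme, fell, with 2403, 2462 and 2556 normalised counts in proficient and 1146, 1053 and 758 in deficient cells (-1.34 ± 0.17, adjusted p = 3.5e-12). POLR1B, a subunit of RNA polymerase I, was the only call among 24 ribosome biogenesis genes (-1.06 ± 0.18, adjusted p = 3.5e-07). Of 30 genes of glycolysis and hypoxia, HK2 (-0.69 ± 0.17) and VEGFA (-0.57 ± 0.18) fell, of 17 immediate-early genes KLF2 and ATF3 fell, and of 16 epithelial and mesenchymal genes PPL rose and OCLN, a tight junction protein, fell. VEGFA lost its call in 3, KLF2 in 2 and OCLN in 4 of the 6 fits with 1 library left out.

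**Figure D3:**
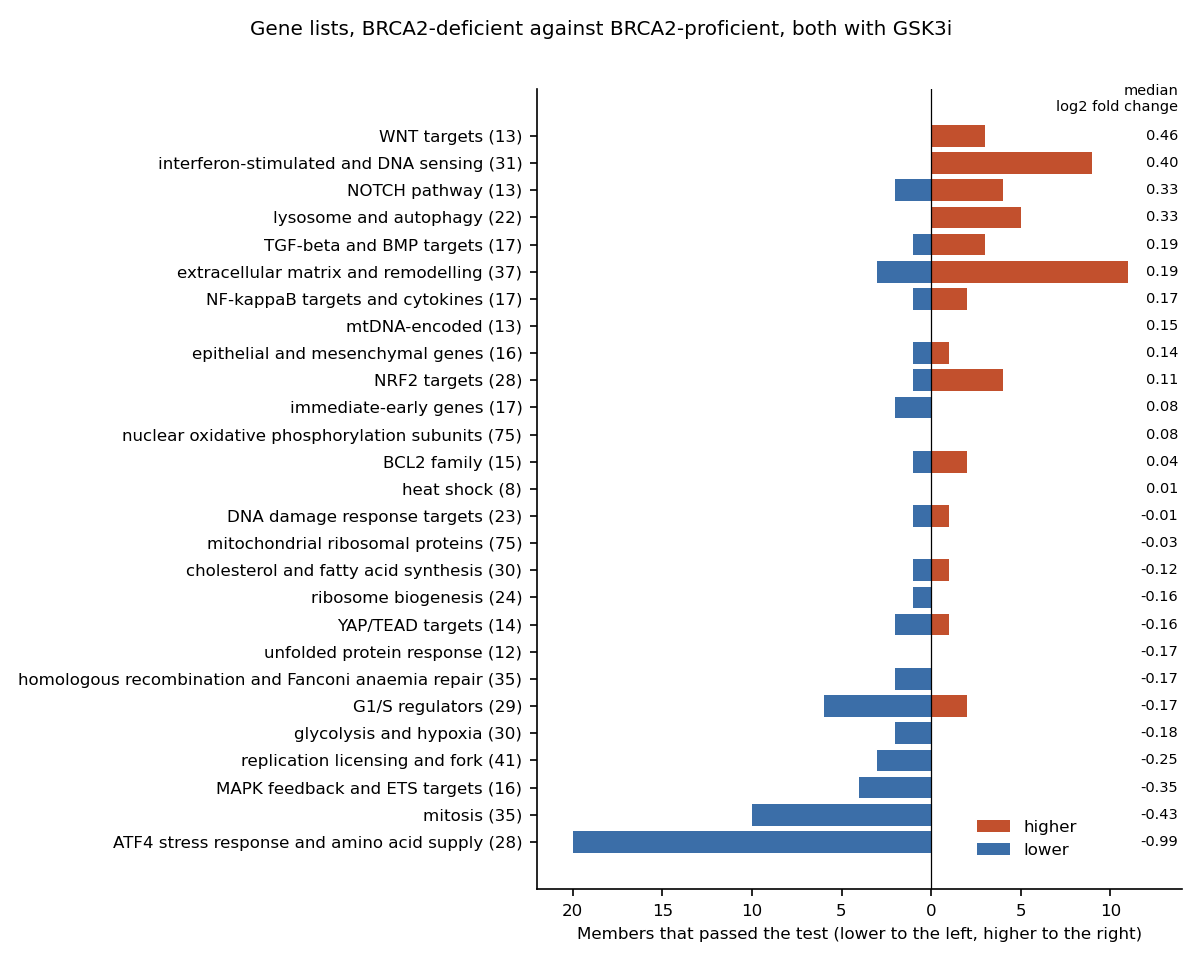
Number of members of each gene list called higher (red, to the right) and lower (blue, to the left) in BRCA2-deficient against BRCA2-proficient cells, both with GSK3i; the number tested is in parentheses and the median log2 fold change of the list at the right. The list of the ATF4 stress response and amino acid supply has the longest bar, 20 of 28 lower, and matrix genes the longest by count to the right, 11 of 37.

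The same contrast was available in 3 other conditions with libraries of their own: untreated (2 proficient and 3 deficient), siβ-catenin, the siRNA against β-catenin, without GSK3i (2 and 3), and GSK3i with siβ-catenin (3 and 3). BRCA2 depletion called 475 genes higher (2.77%) and 710 lower (4.14%) in untreated cells, 2422 (13.6%) and 2466 (13.8%) with siβ-catenin, and 576 (3.38%) and 743 (4.36%) with both. Of the 1112 genes called under GSK3i, the sign was the same for 1085 of 1107 measured in untreated cells, 1079 of 1109 with siβ-catenin and 1088 of 1109 with both, where 74.6%, 75.5% and 78.0% of all genes shared their sign. In untreated cells 580 were also called in the same direction, which is 52.2% of the genes called under GSK3i and 48.9% of those called in untreated cells. The figures were 870 (78.2% and 17.8%) with siβ-catenin and 637 (57.3% and 48.3%) with both. In all 4 conditions 359 genes were called in the same direction, 129 higher and 230 lower, BRCA2, BARD1, YAP1, CARNMT1 and CDK6 among them, and 92 were called in that direction under GSK3i and in none of the other 3. Same-numbered libraries with GSK3i, with and without siβ-catenin, deviated from their group means together (correlations across genes from 0.0477 to 0.76), so the conditions are not fully independent of each other.

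The ATF4 list had 20 of 28 genes called lower in untreated cells (median -1.15), 10 with siβ-catenin (-1.13) and 7 with both (-0.53), with 0 higher in each. With siβ-catenin the 2 proficient libraries lay far apart. SESN2 had 4899 and 618 normalised counts in proficient replicates 2 and 3, against 479, 454 and 689 in deficient cells. In DDIT4, CHAC1 and TRIB3 proficient replicate 3 also lay no higher than the highest deficient library, so their fall there rested on replicate 2. In CTH it lay just above (167 against at most 156). SESN2 had a log2 fold change of -1.84 ± 0.22 in untreated cells against -2.26 ± 0.16 under GSK3i, and ASNS one of -1.60 ± 0.24 against -1.45 ± 0.19. In the mitosis list 31 of 35 genes were called lower in untreated cells (median -0.95), 34 with siβ-catenin (-1.39) and 30 with both (-0.80), against 10 under GSK3i. The replication list had 24, 39 and 16 of 41 called lower in those conditions, against 3. Interferon and DNA-sensing genes had 1, 16 and 1 called higher, against 9.

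**Figure D4:**
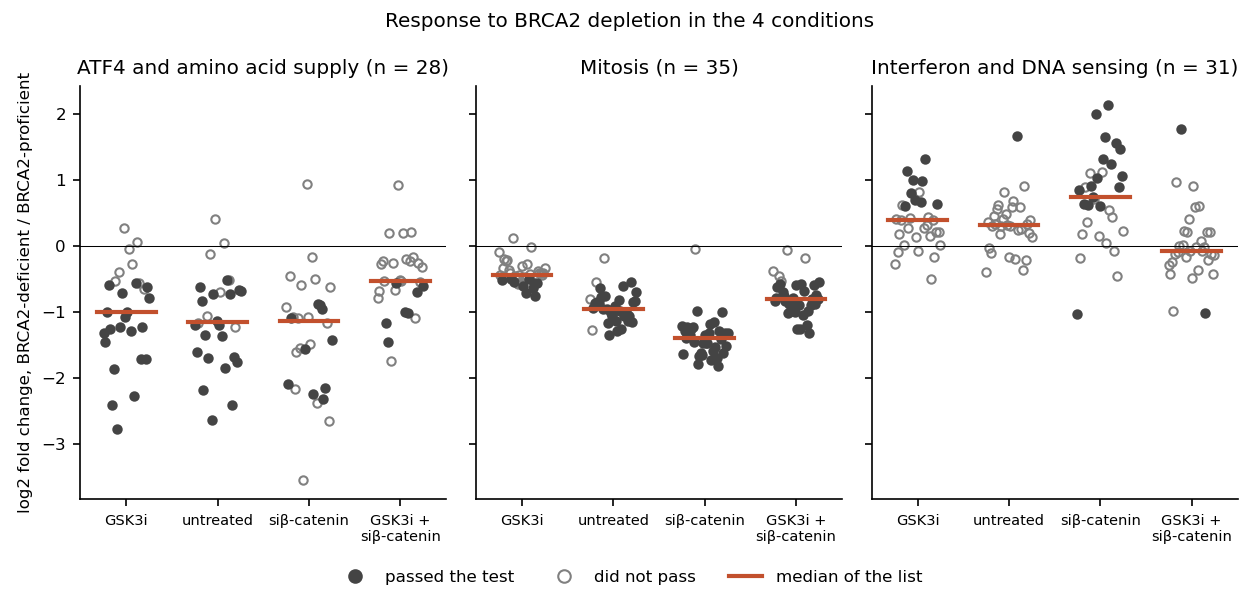
log2 fold change of BRCA2-deficient over BRCA2-proficient cells for each gene (points; filled where called) in 3 lists and 4 conditions, with the median of the list as a red bar. The ATF4 list has a median below 0 in each condition. The mitosis list is nearest to 0 under GSK3i (median -0.43) and lowest with siβ-catenin (-1.39), and the interferon list is highest with siβ-catenin. The siβ-catenin values rest on 2 proficient libraries, which lay far apart in SESN2 (4899 and 618 normalised counts).

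Whether the response to BRCA2 depletion differed with and without GSK3i was tested as an interaction, positive where the log2 fold change was higher under GSK3i. Of 17381 genes, 6 were called (0.0345%): PPL, TROAP, WDR62, FOXM1, RPL26P30 and DIO2. edgeR called 0, with 609 genes at an unadjusted p below 0.05 against 558 by DESeq2. The fit held no replicate term, and with the replicate number as a block more genes were called, as given at the end. PPL had the clearest interaction, 1.82 ± 0.26 (adjusted p = 5.8e-08): its log2 fold change was 0.67 ± 0.18 in untreated cells, where the proficient libraries had 727 and 776 normalised counts and the deficient 1247, 1334 and 1072, and 2.52 ± 0.23 under GSK3i. In both backgrounds every library with GSK3i and control siRNA had less PPL than every untreated one. A large PPL response was not confined to GSK3i. With siβ-catenin and no GSK3i its log2 fold change was 2.67 ± 0.35 (adjusted p = 2.0e-12). That value rested on 2 proficient libraries, with 167 and 315 normalised counts, against 1789, 1993 and 915 in deficient cells. With both, the log2 fold change was 1.17 ± 0.70 and did not pass the test (adjusted p = 0.35). There proficient replicate 2 lay far from its group, with 186, 672 and 170 in proficient replicates 1 to 3, against 612, 1126 and 593 in deficient cells. The cause was not tested. FOXM1 had 7875 and 7757 in untreated proficient and 3770.1, 3728 and 4462 in untreated deficient cells, a log2 fold change of -0.99 ± 0.17, against 9042, 8631 and 8956 and 7502, 7253 and 6975 under GSK3i; the interaction was 0.68 ± 0.15 (adjusted p = 0.0094). TROAP, a spindle protein (0.78 ± 0.13, adjusted p = 3.1e-05), and WDR62, a spindle pole protein (0.77 ± 0.16, adjusted p = 0.0058), fell in untreated cells by 1.02 ± 0.16 and 0.81 ± 0.16 on the log2 scale and did not pass the test under GSK3i (-0.22 ± 0.12 and -0.02 ± 0.13). PPL and TROAP kept their call with any 1 of 11 libraries left out, WDR62 in 4 and FOXM1 in 1 of those 11 fits. DIO2, which activates thyroid hormone, had 39.5 and 35.2 in untreated proficient and 239, 324 and 309 in untreated deficient cells, against 25.6, 25.0 and 21.4 and 33.2, 47.7 and 51.9 under GSK3i (-2.07 ± 0.41, adjusted p = 0.0027). RPL26P30 is a pseudogene of low counts whose reads can come from its parent gene (3.33 ± 0.71, adjusted p = 0.0094). The number called was 14 without deficient GSK3i replicate 1 and 3 without deficient GSK3i replicate 3 or proficient untreated replicate 3.

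All 35 mitosis genes had an interaction above 0, with a median of 0.50 and 1 called (FOXM1), against a median of -0.000325 over all genes. For the replication list it was 37 of 41 with a median of 0.39, and for homologous recombination and Fanconi anaemia repair 28 of 35 with a median of 0.32, with 0 called in either. PLK1 had an interaction of 0.56 ± 0.18 (adjusted p = 0.62) and ORC1 one of 0.73 ± 0.24 (adjusted p = 0.61), neither called. The ATF4 list was balanced, 16 of 28 above 0 with a median of 0.03. DCLK1, LOX, MIR100HG, TMEM200A and GPX8 had the lowest adjusted p among negative interactions of genes with at least 100 normalised counts, and LINC01293 ranked next among the positive ones, and none of the 6 was called (adjusted p from 0.077 to 0.27).

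**Figure D5:**
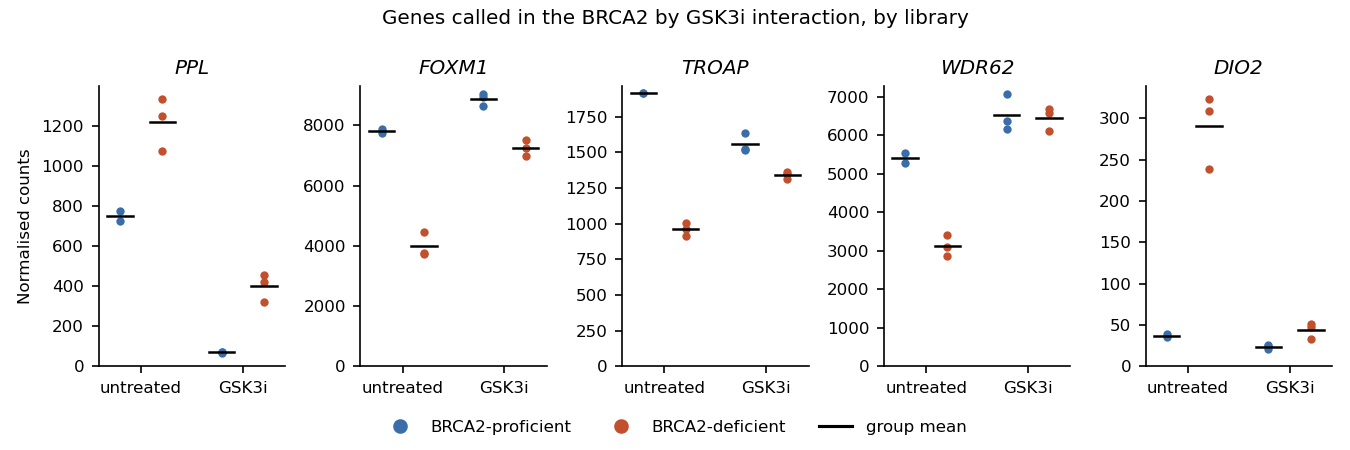
Normalised counts by library of 5 of the 6 genes called in the interaction of BRCA2 depletion with GSK3i, in untreated and GSK3i-treated cells (blue BRCA2-proficient, red BRCA2-deficient, black bars group means; each axis starts at 0). FOXM1, TROAP and WDR62 are separated between the backgrounds by more in untreated cells than with GSK3i, and PPL by a larger ratio with GSK3i.

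Under GSK3i, whether β-catenin depletion changed the response to BRCA2 depletion was tested in the same way. Of 17544 genes 1 was called (0.0057%), the processed pseudogene ENSG00000225871 (chr1:147907215-147909036, GRCh37), with an interaction of 7.10 ± 1.51 (adjusted p = 0.044), and edgeR called 0. It passed the filter on low counts only through the 3 libraries where it was high, so its difference was fixed by the filter and is given as a description, and its call was lost in 7 of the 9 leave-out fits that could test it. It had 40.1, 30.9 and 34.9 normalised counts in deficient cells with GSK3i and at most 6.72 in each other library of the series. By library left out, 11 genes were called without proficient GSK3i+siβ-catenin replicate 2, 2 without proficient GSK3i replicate 1 or 2, and otherwise 0 or 1. Proficient GSK3i+siβ-catenin replicate 2 lay far from its group in some genes, such as ETV1 (1035 normalised counts against 293 and 263). In others, such as PRIM1, it did not (814 against 810 and 755). The cause was not tested. For this interaction, both tools had 326 genes at an unadjusted p below 0.05. The genes of lowest adjusted p with a mean of at least 100 included PRIM1 (0.73, adjusted p = 0.089), NCAPG (0.64, adjusted p = 0.18), VEGFA (-0.97, adjusted p = 0.18), GABRG1 (-1.47, adjusted p = 0.31) and SESN2 (-1.24, adjusted p = 0.46). The other 5 were HMGB1P6, SERTAD4, ETV1, SLC6A10P and NSMF. None of the 28 ATF4-list genes had an interaction above 0 and the median was -0.48, against 0.01 over all genes, but 0 were called.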

How the data were processed

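Human H1299 cells carrying a DOX-inducible hairpin against BRCA2 were profiled by poly(A) RNA-seq. The deposited values are raw counts: per the study's methods the authors aligned reads to GRCh37 (hg19), removed duplicates and counted uniquely mapped reads per Ensembl gene. The submitters' processing notes name HISAT2 2.0.4, SAMtools 1.4, Picard 1.9.2 and featureCounts 1.5.0. The strand setting and Ensembl release are not given in the sources used here. Duplicate removal lowers the counts of highly expressed genes.

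Counts were tested with DESeq2 1.42.0 (Wald test, R 4.3.3), as in the study, on the 6 libraries alone, and with edgeR 4.0.16 (quasi-likelihood) as an alternative. Genes were left out where more than 3 libraries had fewer than 10 counts. Calls needed an adjusted p below 0.05 and a log2 fold change beyond 0.5. Interactions used 11 or 12 libraries and genes with at least 10 counts in 3 libraries. Normalised counts are counts divided by size factors over 22 libraries. Scripts were tested on simulated data. Gene symbols and GRCh37 coordinates come from the matched annotation, and promoters from RefSeq GRCh38.p14.

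Replicate numbers paired the libraries in part: deviations from the group means correlated at 0.537, 0.115 and 0.433 within numbers 1, 2 and 3. Deficient replicate 2 correlated more with proficient replicate 3 (0.267), and the other pairs of unlike number lay between -0.478 and -0.00131. The main fits held no replicate term, so their SEs and adjusted p leave this pairing out. Fits with the replicate number as a block were run as an alternative. The study describes replicates as independent experiments.

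The genes named were BRCA2, CTNNB1 and AXIN2, the 12 largest called increases and the 12 largest called decreases with a mean of at least 100 normalised counts and no overlap, members of 27 gene lists, per interaction the 5 positive and 5 negative genes ranked first by adjusted p (mean at least 100), and the genes behind counts of 5 or fewer. DIO2, RPL26P30 and ENSG00000225871 are also named because they were called in an interaction. The comparison and the gene lists were chosen with earlier results of these data known. Some listed genes are counted but not reported here by name.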

Additional observations from a re-analysis of the deposited data

Results flagged for a closer look

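The response to BRCA2 depletion differed between cells with and without GSK3i, by the DESeq2 test of the interaction, for 6 genes. The difference on the log2 scale, GSK3i minus untreated, was 1.82 for PPL, 0.78 for TROAP, 0.77 for WDR62, 0.68 for FOXM1, 3.33 for RPL26P30 and -2.07 for DIO2. Between cells with GSK3i alone and with GSK3i and siβ-catenin it was 7.10 for ENSG00000225871, a pseudogene that passed the filter on low counts only through the 3 deficient libraries with GSK3i, so that it had to differ, and that lost its call in 7 of the 9 leave-out fits that could test it. edgeR called 0 genes in either test.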

How the results depend on the processing

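No called gene of the text and lists changed sign under the alternatives run, but the balance of calls did. The comparison under GSK3i gave 643 genes by edgeR, 92 when tested against a log2 fold change of 0.5, and 608 to 1302 with 1 library left out. Of the 1112 genes, 614 were higher and 498 lower, whereas lower calls outnumbered higher ones without deficient replicate 2 (388 higher, 415 lower), without deficient replicate 3 (374 and 412) and in the test against 0.5 (42 and 50). One model over all groups gave 619 higher and 402 lower. The replicate block gave 1266 genes, 640 higher and 626 lower, and took the call from GDF15, HEYL, IFI44L, ISG20 and NKD2 among the 123 called genes of the text and lists that it could test. Of 124 such genes, 65 kept their call with any 1 library left out and 73 by edgeR. In untreated cells edgeR called 341 genes and the leave-out fits 183 to 2147. With siβ-catenin the replicate block called 2020 and the leave-out fits 2879 to 4912. With GSK3i and siβ-catenin edgeR called 478 and the leave-out fits 748 to 1603, with the balance turning from 576 higher and 743 lower to 806 and 797 without proficient replicate 2. The interaction with GSK3i gave 0 genes by edgeR, 94 with the replicate block (73 higher, 21 lower) and 3 to 14 with 1 library left out. Same-numbered libraries there correlated at 0.0810 to 0.617, so the numbers paired some libraries and not every one. The interaction with siβ-catenin gave 0 by edgeR, 0 with no filter, 4 with the replicate block and 0 to 11 with 1 library left out. For the lists, edgeR called 8 matrix, 2 interferon, 1 lysosome, 4 mitosis and 1 replication gene. With 1 library left out the ranges were 7 to 17 for matrix, 0 to 8 for interferon, 1 to 4 for lysosome, 4 to 10 for mitosis, 1 to 3 for replication and 15 to 21 for ATF4 genes. Leave-out fits have fewer samples, and the cause of the other differences was not tested. The call rule leaves out changes inside 0.5: 1406 genes had an adjusted p below 0.05, of which 1112 were called.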
